A study of Mus musculus with 12 samples.

Results

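Chemokines and interleukins are the secreted proteins by which cells call in, position and instruct immune cells, and their receptors sit on the cells that respond. The genes described here are all those whose symbol begins with Ccl, Cxcl, Ccr, Cxcr or Il followed by a digit, taken from array probes with 1 gene symbol, using each gene's probe of highest mean. There were 124 such genes among 19937 in all. They comprise 19 CC ligands, 13 CXC ligands, 10 CC receptors, 6 CXC receptors, 39 genes of interleukins or antagonists, among them Il1bos, a non-coding RNA named from Il1b, and 37 of interleukin receptors or binding proteins. The labels describe olfactory epithelium, the nasal sheet that holds the odour-sensing neurons, from 48 male C57BL/6 mice. The animals lived in 12 h of light and 12 h of dark for at least 14 days and were then kept in constant darkness. Each of 12 time points, every 4 h from CT12 to CT56, was a single RNA pool of 4 mice on 1 Affymetrix array. In circadian time (CT), hours 12 to 24 form the subjective night, when mice are active, and hours 0 to 12 the subjective day. The pools at CT36 to CT56 are the second cycle and those at CT12 to CT32 the first, so each of 6 phases holds 2 pools 24 h apart. No time point had a replicate, all mice were of 1 strain and sex, and all pools were taken in darkness.

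In mucosa, homeostatic chemokines such as CCL19, CCL28 and CXCL12 place lymphocytes and dendritic cells in resting tissue, while inflammatory chemokines such as CXCL1 and CCL2 draw in neutrophils and monocytes. Chemokine receptors are G-protein-coupled receptors. Interleukins act through several receptor classes, among them the IL-1 family, whose receptors lead to the transcription factor NF-κB, and receptors that use JAK kinases and STAT factors. Airway and nasal epithelial cells are themselves sources of IL-33, IL-18, CXCL5 and CXCL17.

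Levels are log2 intensities, on which a difference of 1 is a doubling. They depend on the probe as well as on the transcript, so values are compared only within a gene. In RNA of a whole tissue, fewer cells of a type and less RNA per cell cannot be told apart. The chemokine and interleukin genes were mostly dim, since 62 of the 124 had a mean below the 25th percentile of all genes (7.10) and 39 more lay between it and the median (8.18). The files used here give no detection call. Marker genes of the labelled tissue were bright in every pool, with a median level of 11.99 to 12.23 over 10 genes of olfactory sensory neurons and 12.47 to 12.78 over 7 of supporting cells. The median over 13 markers of nasal glands lay between 8.64 and 12.73. The pool at CT56 had the lowest mean correlation with the other pools (0.984), followed by CT36 (0.988) and CT32 (0.989).

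Most members varied little over the 12 pools. The range from the lowest to the highest pool had a median of 0.491 over the members, beside 0.456 over all genes, and the SD of the 2 pools of a phase had a median of 0.127 over the members. A range over 1 was reached by 1 member, Ccl19 (0.806% of members, beside 2.82% of all genes). The narrowest range, 0.152, was that of Il17ra, the receptor chain shared by the IL-17 family (named after its values were seen). It was followed by Ccl25, a chemokine of thymus and gut, with a range of 0.154. The median range was 0.574 among CC ligands, 0.553 among CXC ligands, 0.556 among CC receptors, 0.457 among CXC receptors, 0.480 among interleukins and 0.432 among their receptors.

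**Figure D1:**
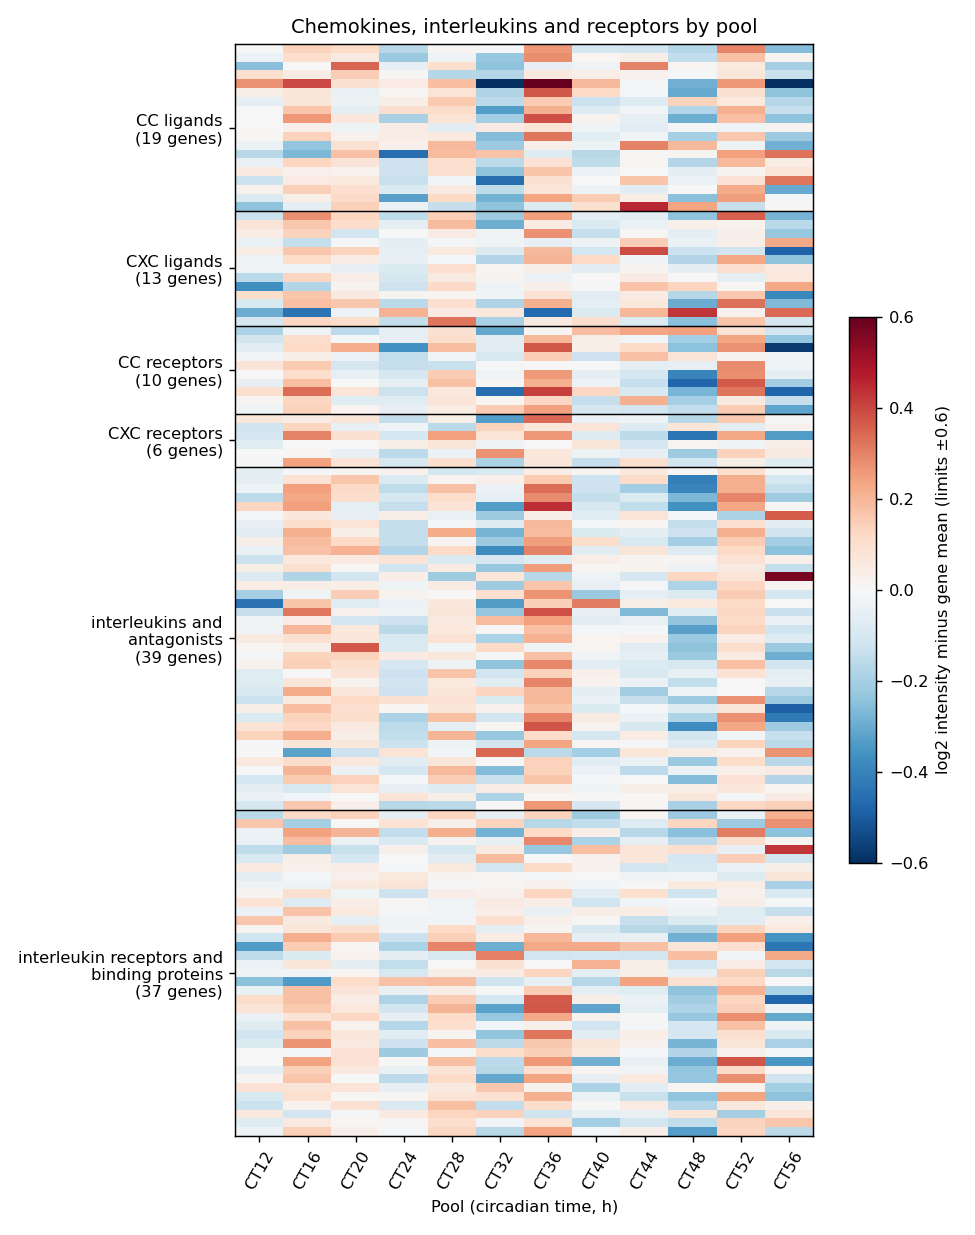
Each row is 1 of the 124 genes, grouped by role and sorted by symbol, and each column is 1 pool from CT12 to CT56. Colour gives the log2 intensity minus the gene's mean, with limits of ±0.6. The columns at CT36 and CT52 are mostly red and those at CT48 and CT56 mostly blue.

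The members moved together from pool to pool. The CT36 pool was the highest for 41 members (33.1%, beside 18.5% of all genes) and the CT52 pool for 25 (20.2%, beside 9.87%). The CT48 pool was the lowest for 31 members (25%, beside 15.8%), CT56 for 28 (22.6%, beside 19.5%) and CT32 for 27 (21.8%, beside 7.08%). The level of dim genes as a whole moved the same way. Relative to each gene's own mean, the median of the 62 dim members was 0.15 at CT36 and -0.15 at CT48, and that of all 4984 dim genes was 0.12 and -0.13 in the same pools. In the 39 members between the 25th and the 50th percentile the medians were 0.19 at CT36 and -0.17 at CT48, beside 0.12 and -0.12 for the 4984 genes of that bin. At CT32 this bin of members lay at -0.16, and the bin of all genes at 0.0042. The median of the 23 brighter members stayed between -0.020 and 0.042 in every pool. That of the 9969 genes of this bin ran from -0.099 at CT36 to 0.11 at CT32. Single bright members moved more than their median, such as Ccl19 with a range of 1.71. The part of this shift of dim genes in the differences below was not tested, and values after quantile normalization, which gives all arrays the same distribution, are given beside the counts of the night contrast.

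**Figure D2:**
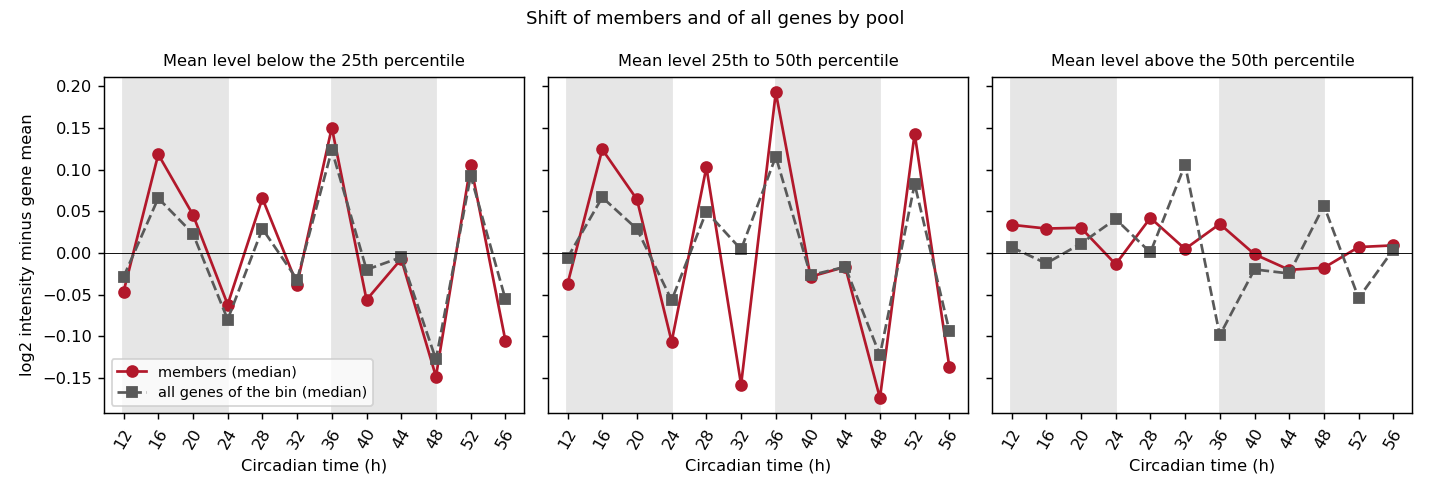
Median log2 intensity minus gene mean against circadian time in hours, for the members (red circles) and for all genes of the same brightness (grey squares), in 3 bins of mean level. Grey bands are subjective night. In the left and middle panels both lines peak at CT36 and are lowest at CT48. In the right panel the median of the members stays within -0.020 to 0.042.

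The first question was whether any of these genes followed a 24 h rhythm. A cosine of 24 h was fitted to all 12 pools of every gene with limma, a gene was called at an adjusted p under 0.05 over all 19937 genes, and the amplitude is the height of the fitted peak over the mean. None of the 124 members was called, against 5 of all genes (0.0251%). At an unadjusted p under 0.05 there were 7 members, against 706 of all genes (3.54%). Of the 7, 4 had a fitted peak in the subjective day (all genes 515, 2.58%) and 3 in the night (all genes 191, 0.958%). Without the pool at CT52 the count of members was 13, and the count over all genes without that pool is not given here. The median amplitude was 0.058 over the members and 0.065 over all genes. The 7 are described below as the largest candidates, and no one of them is a call.

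Il1rl2, the receptor of the IL-36 cytokines on epithelial cells, had the smallest p of the 124. From CT12 to CT56 its pools read 6.06, 5.97, 6.42, 6.48, 6.49, 6.19, 6.26, 6.14, 6.55, 6.40, 6.43 and 6.31. The 4 pools at CT12, CT16, CT36 and CT40, in the early night, were all lower than the 6 pools at phases 20, 0 and 4 h. The fitted amplitude was 0.21 ± 0.050 (SE, 12 pools) with a peak at CT 0.94, and the fitted peak was 1.33-fold over the trough (limma, adjusted p = 0.857). Its ligands IL-36α, IL-36β and IL-36γ are listed as Il1f6, Il1f8 and Il1f9, and all 3 were dim, with highest pools of 5.86, 5.18 and 6.15.

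The 250 bases before the start of Il1rl2 are shown because they hold the D-box 2 times, more than any other member's promoter. The D-box, TTATGNAA, is the element bound by the clock output factor DBP and its relatives. Sequences are from RefSeq, build GRCm38.p6, read 5′ to 3′, with each match in capitals.
Il1rl2, chr1:40324339-40324588, plus strand: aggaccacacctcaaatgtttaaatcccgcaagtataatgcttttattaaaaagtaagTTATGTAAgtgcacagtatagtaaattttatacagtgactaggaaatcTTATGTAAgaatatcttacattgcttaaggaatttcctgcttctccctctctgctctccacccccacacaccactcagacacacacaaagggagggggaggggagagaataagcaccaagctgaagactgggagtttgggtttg
A D-box, searched on both strands, stood in 5 of the 107 promoters of 93 members that had one in the table (4.67%), beside 3.07% of all 32851 promoters of the same length. The clock's E-box, CACGTG, stood in 3 member promoters (2.80%, beside 6.02% of all). A match of letters is a description and does not show binding.

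Cxcl5, a neutrophil-attracting chemokine that in the mouse lung is made by club cells under clock control, had the largest amplitude of the 7. Its pools from CT12 to CT56 read 7.78, 7.63, 8.04, 8.29, 8.13, 8.14, 7.61, 7.99, 8.27, 8.50, 8.10 and 8.42. The lowest 3 were CT36, CT16 and CT12, and the highest was CT48. The amplitude was 0.29 ± 0.075 with a peak at CT 1.6, or 1.5-fold from trough to peak (limma, adjusted p = 0.946).

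Il33, the gene of an alarmin stored in the nuclei of epithelial cells, had its fitted peak later in the day. Its pools read 10.93, 10.61, 10.81, 11.02, 10.92, 11.28, 10.77, 10.73, 11.01, 10.98, 10.96 and 11.20. The highest were CT32 and CT56, the 2 pools of phase 8 h. Over all genes CT56 had the lowest mean correlation with the other pools (0.984). The amplitude was 0.18 ± 0.058 with a peak at CT 5.2 (limma, adjusted p = 0.996). Cxcr5, the receptor of CXCL13 on B cells, was the fourth with a peak in the day, at CT 9.4, and its amplitude was 0.13 ± 0.044 (limma, adjusted p = 0.996). It was dim, between 5.60 at CT48 and 6.09 at CT32. No CC receptor was among the 7, and their smallest p was that of Ccr1, a receptor of CCL9, with a fitted peak at CT 21.6, 0.12 ± 0.062 over its mean (limma, adjusted p = 0.996).

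The 3 members with a fitted peak in the night were all CC ligands. Ccl12, a monocyte-attracting chemokine of the CCL2 group, read 5.71, 5.96, 6.31, 5.91, 6.06, 5.71, 5.91, 5.94, 6.26, 5.97, 6.02 and 5.76 from CT12 to CT56. It was highest at CT20 and CT44, the same phase in both cycles, and its amplitude was 0.20 ± 0.053 with a peak at CT 21.2 (limma, adjusted p = 0.996). Ccl9, a ligand of CCR1 in the mouse, read 8.40, 8.59, 8.78, 8.60, 8.50, 8.40, 8.56, 8.74, 9.09, 8.88, 8.50 and 8.65. It too was highest at phase 20 h in both cycles, and the fit gave a peak at CT 20.5 and an amplitude of 0.21 ± 0.057 (limma, adjusted p = 0.996). Ccl28, a chemokine of mucosal glands that attracts antibody-secreting cells, had a fitted peak at CT 22.4, 0.16 ± 0.058 over its mean (limma, adjusted p = 0.996). Its pools ran from 8.09 at CT56 to 8.68 at CT44. The CT44 pool, where Ccl9 and Ccl28 were highest, was also the highest for 13 measured markers of nasal glands, whose mean relative to their own averages was 1.23 there and -0.70 at CT12, and for 9 of connective tissue fibroblasts, at 0.30. The gland markers were next highest at CT32, at 0.88, the pool where Ccl9 was lowest, at 8.40. The part of both marker lists in these levels was not tested.

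**Figure D3:**
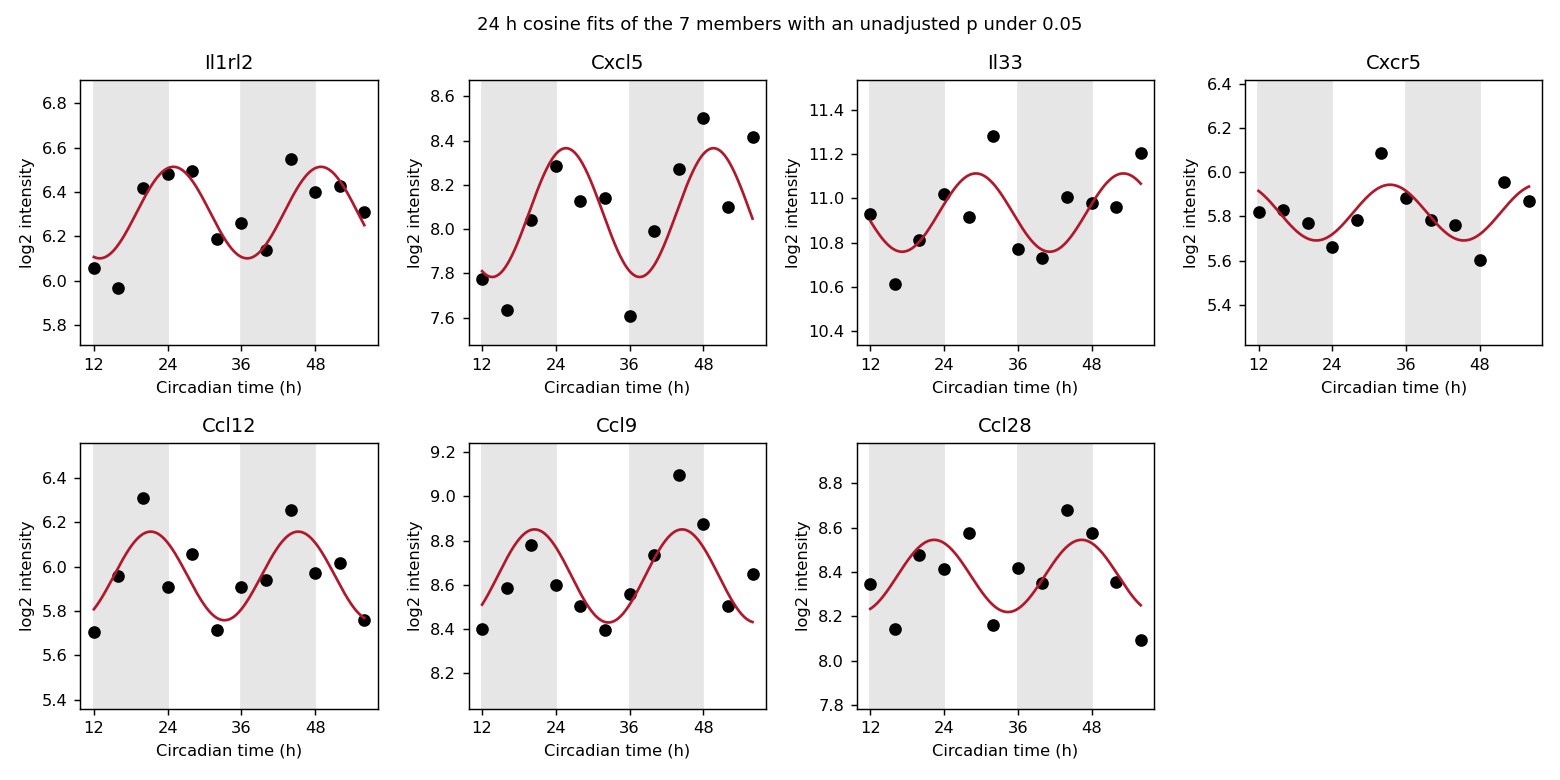
Log2 intensity against circadian time in hours for the 7 members with an unadjusted p under 0.05 in the 24 h fit. Points are single pools, lines the fitted cosines and grey bands subjective night, and every panel spans 1.2 log2 units. Within each cycle Ccl12 and Ccl9 are highest at phase 20 h, and Cxcl5 is lowest at CT36 and highest at CT48.

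Ccl19 differed between phases in a form unlike a cosine. CCL19 guides T cells and dendritic cells through its receptor CCR7, and it was the member with the largest range, 1.71. From CT12 to CT56 it read 10.78, 10.90, 10.59, 10.55, 10.68, 9.51, 11.22, 10.69, 10.50, 10.21, 10.76 and 9.64. The 2 pools of phase 8 h, CT32 and CT56, were the lowest, and the other 10 lay between 10.21 and 11.22. With the 6 phases as a factor in place of the cosine, Ccl19 was 1 of 17 genes called (0.0853% of all) and the sole member called. In that fit 31 members had an unadjusted p under 0.05, against 3361 of all genes (16.9%). Phase 8 h lay at -1.11 ± 0.12 (SE, 12 pools) relative to the other phases (limma, adjusted p = 0.0115 for the 6 phases), a contrast chosen after its values were seen.

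Ccr7, the receptor, was lowest in the same 2 pools and highest in the same pool. Its pools read 8.41, 8.65, 8.39, 8.19, 8.38, 7.86, 8.73, 8.44, 8.23, 8.04, 8.64 and 7.84. These were CT56 and CT32 at the low end and CT36 at the high end. Phase 8 h lay at -0.56 ± 0.10 relative to the others, which did not pass (limma, adjusted p = 0.147).

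The Ccl19 call rests on 1 of its 4 probes. The second probe read 7.62 at CT32, its lowest. At CT56 it read 8.58, within its values of 8.53 to 9.28 in the other pools. The third read 6.75 at CT32, its lowest, but 8.89 at CT56, its highest. The fourth lay between 7.49 and 7.95 in all pools. Each of these 3 gave no call by itself (limma over 21640 probes, adjusted p = 0.319, 0.911 and 0.312), and the mean of all 4 gave -0.61 for phase 8 h (limma, adjusted p = 0.282). The mouse genome carries near copies of Ccl19, so the signal of a probe may be shared between them and its source is uncertain. The call was also lost with CT32 left out (adjusted p = 0.0587), with CT56 left out (adjusted p = 0.0511) and after cyclic loess normalization (adjusted p = 0.0733).

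The promoter of Ccl19 is shown because it is the one member called. It held none of the 3 motifs searched.
Ccl19, chr4:42756366-42756615, minus strand: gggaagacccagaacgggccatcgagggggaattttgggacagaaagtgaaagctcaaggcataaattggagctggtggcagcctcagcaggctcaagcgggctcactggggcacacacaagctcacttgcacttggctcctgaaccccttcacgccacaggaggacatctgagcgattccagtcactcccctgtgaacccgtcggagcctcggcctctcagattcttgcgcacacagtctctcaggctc

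**Figure D4:**
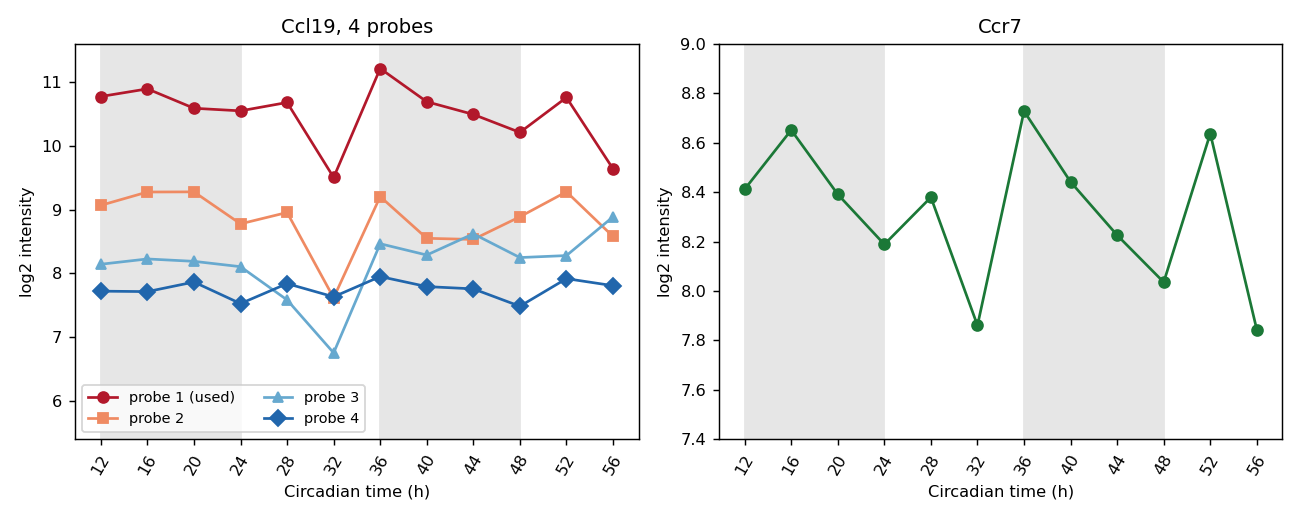
Log2 intensity against circadian time in hours for the 4 probes annotated to Ccl19 (left, numbered by mean level) and for Ccr7 (right). Each point is 1 pool and grey bands are subjective night. The first probe and Ccr7 are lowest at CT32 and CT56, whereas the third probe is lowest at CT32 and highest at CT56.

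The second question was the contrast of the 6 pools of subjective night with the 6 of subjective day. None of the 124 members was called, and none of all genes (0%). At an unadjusted p under 0.05 there were 15 members, against 1965 of all genes (9.86%). Of these 11 were higher at night (all genes 831, 4.17%) and 4 lower (all genes 1134, 5.69%). The difference was above 0 for 99 members (79.8%, all genes 48.5%) and below 0 for 25, with a median of 0.078, beside -0.0044 over all genes. All genes are not matched to the members for brightness, since 101 of the 124 members lay below the median level. Relative to each gene's mean, the median of all 4984 dim genes ran from -0.029 to 0.12 in the night pools. In the day pools it ran from -0.13 to 0.093. After quantile normalization 82 of the 124 were above 0 (66.1%, all genes 53.1%), and the median was 0.032, beside 0.0067 over all genes. The members with an unadjusted p under 0.05 were then 10 higher and 7 lower, beside 1630 of all genes in either direction. With single pools left out, the count of 15 became 37 without CT52, 9 without CT48, 8 without CT16, 7 without CT32 or CT36 and 6 without CT56. It was 3 without CT32 and CT56 together. The counts over all genes with these pools left out are not given here, so no change is read as particular to the members. In no member did all night pools lie above or below all day pools.

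The 4 members lower at night were a chemokine and 3 genes of the IL-1 family. Cxcl5 had a lowest, median and highest pool of 7.61, 7.89 and 8.27 at night, against 8.10, 8.21 and 8.50 by day, a difference of -0.37 ± 0.11 (limma, adjusted p = 0.497). Il33 ran from 10.61 over 10.79 to 11.01 at night and from 10.92 over 10.999 to 11.28 by day, a difference of -0.25 ± 0.079 (limma, adjusted p = 0.497). Il1rap, the co-receptor that the receptors of IL-1, IL-33 and IL-36 share, differed by -0.18 ± 0.073, with means of 7.78 ± 0.060 at night and 7.96 ± 0.17 by day (SD, 6 pools each). Il18, an interleukin released by inflammasomes, averaged 6.99 ± 0.054 at night and 7.21 ± 0.26 by day, and its day mean held the pool at CT56, its highest at 7.67. For all 4 the night and day pools overlapped. Of 8 measured markers of motile cilia, which belong to respiratory epithelium, 4 had an unadjusted p under 0.05, all lower at night (all genes 5.69%). The median difference was -0.15. After quantile normalization it was -0.12, and 0 of the 8 markers had an unadjusted p under 0.05. Their mean level ran from -0.16 to 0.031 around its average at night and from -0.096 to 0.23 by day. Their part in these 4 values was not tested.

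Among the 11 members higher at night, the named ones were 4 chemokines, the receptor Ccr7 and the interleukin Il17b. Cxcl13, the B cell chemokine, averaged 6.44 ± 0.17 at night and 6.17 ± 0.18 by day, a difference of 0.27 ± 0.091 (limma, adjusted p = 0.497). It was highest at CT44 (6.70) and lowest at CT56 (5.82). Ccl19 averaged 10.78 ± 0.26 at night and 10.23 ± 0.54 by day, a difference of 0.55 ± 0.20, in which the day SD reflects the low pools at CT32 and CT56. Ccr7 averaged 8.48 ± 0.18 at night and 8.16 ± 0.31 by day, a difference of 0.32 ± 0.12.

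Il17b, an IL-17 family member, averaged 8.44 ± 0.12 at night and 8.24 ± 0.15 by day. Ccl17, a ligand of CCR4, averaged 7.88 ± 0.046 at night and 7.74 ± 0.10 by day. Ccl24, an eosinophil chemokine, averaged 6.92 ± 0.17 at night and 6.69 ± 0.19 by day. The other 5 differed by 0.14 to 0.26, with the same adjusted p of 0.497 (limma), and included Il20rb and Ccr1l1. Of 11 measured B cell markers, 8 had a night mean above the day mean, beside 48.5% of all genes. Blnk had the smallest p of the 11 and was lower at night, at -0.20 ± 0.069 (limma, adjusted p = 0.497). The night mean was also higher in 10 of 13 markers of T and NK cells (7 of 13 after quantile normalization) and 7 of 10 of dendritic cells. In these lists 0 were called, with median differences of 0.091, 0.061 and 0.089. The counts were 10 of 14 for neutrophils on either scale and 9 of 10 for endothelial cells (7 of 10 after quantile normalization). For macrophages the count was 8 of 15 with a median of 0.0079, and 6 of 15 with a median of -0.033 after quantile normalization. Around its average, the mean of the B cell list ran from -0.070 to 0.14 at night and from -0.19 to 0.083 by day, that of the T and NK list from -0.060 to 0.13 at night and from -0.21 to 0.16 by day, and that of the dendritic list from -0.051 to 0.13 at night and from -0.17 to 0.23 by day. The part of these cell markers in these levels was not tested.

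By role, the night difference was above 0 in 16 of 19 CC ligands (median 0.098), 9 of 13 CXC ligands (0.073), 10 of 10 CC receptors (0.059), 4 of 6 CXC receptors (0.057), 33 of 39 genes of the interleukin group (0.091) and 27 of 37 interleukin receptors (0.052), beside 48.5% of all genes. After quantile normalization the counts were 16 of 19 CC ligands, 8 of 13 CXC ligands, 5 of 10 CC receptors, 4 of 6 CXC receptors, 26 of 39 of the interleukin group and 23 of 37 interleukin receptors, beside 53.1% of all genes. Among homeostatic chemokines 7 of 11 were above 0 on either scale, and among inflammatory ones 17 of 22, or 16 of 22 after quantile normalization. The inflammatory list holds Ppbp and Pf4, which are not members and also stand in the list of other chemokines below.

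By receptor system, 8 of 11 genes of the IL-17 group, 6 of 8 of the gp130 group and 5 of 8 receptors of the IL-1 family were above 0 on either scale. The counts were 6 of 6 in the IL-12 group, 9 of 10 in the IL-10 group, 12 of 16 in the common gamma chain group and 7 of 10 among IL-1 family ligands, and after quantile normalization 4 of 6, 6 of 10, 9 of 16 and 5 of 10 in the same groups. Over all genes, not matched for brightness, the share above 0 was 48.5%, and 53.1% after quantile normalization. No gene of any of these groups was called.

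The third question was whether levels differed between the second cycle in darkness and the first, with each pool set against the pool 24 h earlier. No member and no gene (0%) was called. At an unadjusted p under 0.05 there were 7 members, against 2625 of all genes (13.2%). All 7 were higher in the second cycle, as were 842 of all genes (4.22%), and 0 members against 1783 of all genes (8.94%) were lower. The difference was above 0 for 59 members and below 0 for 65, with a median of -0.0026, beside -0.026 over all genes. After centring each array on its median 81 members were above 0, and the share of all genes in that setting is not given here. After quantile normalization 67 members were above 0 (54.0%, beside 45.1% of all genes). At an unadjusted p under 0.05, 8 members were then higher and 3 lower, beside 2508 of all 19937 genes in either direction. Without CT32 or CT56 the count of 7 was 4. Without CT12 or CT36 it was 14, with 35 members above 0. The counts over all genes with these pools left out are not given here.

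Among the 7 were Ccr1, a receptor of monocytes and neutrophils, and the CC ligands Ccl9, Ccl6 and Ccl8. Ccr1 was dim. It read 5.78, 5.96, 6.01, 6.02, 5.85 and 5.66 from CT36 to CT56, against 5.59, 5.75, 5.61, 5.71, 5.86 and 5.47 from CT12 to CT32. It was higher in 5 of 6 pairs, by 0.21 ± 0.060 (limma, adjusted p = 0.304). Ccl9 averaged 8.74 ± 0.22 in the second cycle and 8.54 ± 0.15 in the first (SD, 6 pools each), a difference of 0.19 ± 0.056 that was above 0 in 5 of 6 pairs and -0.0001 in the sixth (limma, adjusted p = 0.304). Ccl6, named after its values were seen, differed by 0.21 ± 0.092 (limma, adjusted p = 0.368), and its largest pair difference, 0.77, was CT56 against CT32.

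The 250 bases before the start of Ccl9 are shown because Ccl9 is the member with an unadjusted p under 0.05 in both the 24 h fit and the contrast of cycles, and because they hold an NF-κB motif. The motif searched was GGGNNNTTCC, on both strands.
Ccl9, chr11:83578637-83578886, minus strand: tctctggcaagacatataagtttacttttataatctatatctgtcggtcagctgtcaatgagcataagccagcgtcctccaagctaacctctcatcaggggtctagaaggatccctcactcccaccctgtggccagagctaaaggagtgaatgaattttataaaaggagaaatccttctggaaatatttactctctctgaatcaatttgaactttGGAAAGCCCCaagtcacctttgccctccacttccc

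Il1b, the inflammatory cytokine IL-1β, was the single member higher in 6 of 6 pairs (all genes 316, 1.58%). It read 7.42, 7.58, 7.31, 7.33, 7.39 and 7.27 in the second cycle, against 6.83, 7.44, 7.20, 7.24, 7.34 and 6.94 in the first. The pair differences ran from 0.052 to 0.59, with a mean of 0.22 ± 0.073 (limma, adjusted p = 0.304). The largest were CT36 against CT12 and CT56 against CT32.

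Cxcl17, a mucosal chemokine, differed by 0.19 ± 0.066 (limma, adjusted p = 0.313), with means of 9.37 ± 0.097 in the second cycle and 9.19 ± 0.17 in the first. Il13ra1, a chain of the receptors for IL-4 and IL-13, differed by 0.17 ± 0.069 (limma, adjusted p = 0.329), and its highest pool was CT56 at 10.67. Ccl8, a monocyte chemoattractant protein, differed by 0.14 ± 0.061 (limma, adjusted p = 0.355). Each of the 3 was higher in 5 of 6 pairs. Lower in 6 of 6 pairs were 2 members, Il17re and Il18bp (all genes 1217, 6.1%), by 0.0091 to 0.18 and by 0.043 to 0.14. Both were named after their values were seen, and neither had an unadjusted p under 0.05.

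Cell markers were read in the same contrast, and 0 of them were called. Of 10 markers of olfactory sensory neurons, 9 were lower in the second cycle. An unadjusted p under 0.05 was reached by 6 of the 10 (all genes 13.2%), 5 of these lower (all genes 8.94%). The smallest p was that of Omp, the olfactory marker protein, at -0.20 ± 0.053 (limma, adjusted p = 0.304). The neutrophil gene Lcn2 differed by 0.60 ± 0.26 (limma, adjusted p = 0.352), the monocyte gene Cd14 by 0.25 ± 0.099 (adjusted p = 0.329), the fibroblast gene Lum by 0.46 ± 0.13 and the endothelial gene Emcn by 0.32 ± 0.091 (both adjusted p = 0.304). As lists, 6 of 15 macrophage, 5 of 14 neutrophil, 6 of 9 fibroblast and 5 of 10 endothelial markers were above 0, beside 38.3% of all genes. The medians were -0.0026, -0.028, 0.020 and -0.0019, and each list held 1 gene with an unadjusted p under 0.05. Around its average, the macrophage list ran from -0.087 to 0.084 in the second cycle and from -0.12 to 0.15 in the first, the neutrophil list from -0.079 to 0.18 in the second and from -0.23 to 0.19 in the first, and the sensory neuron list from -0.15 to 0.026 in the second and from -0.035 to 0.13 in the first. Their part in the 7 members was not tested.

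**Figure D5:**
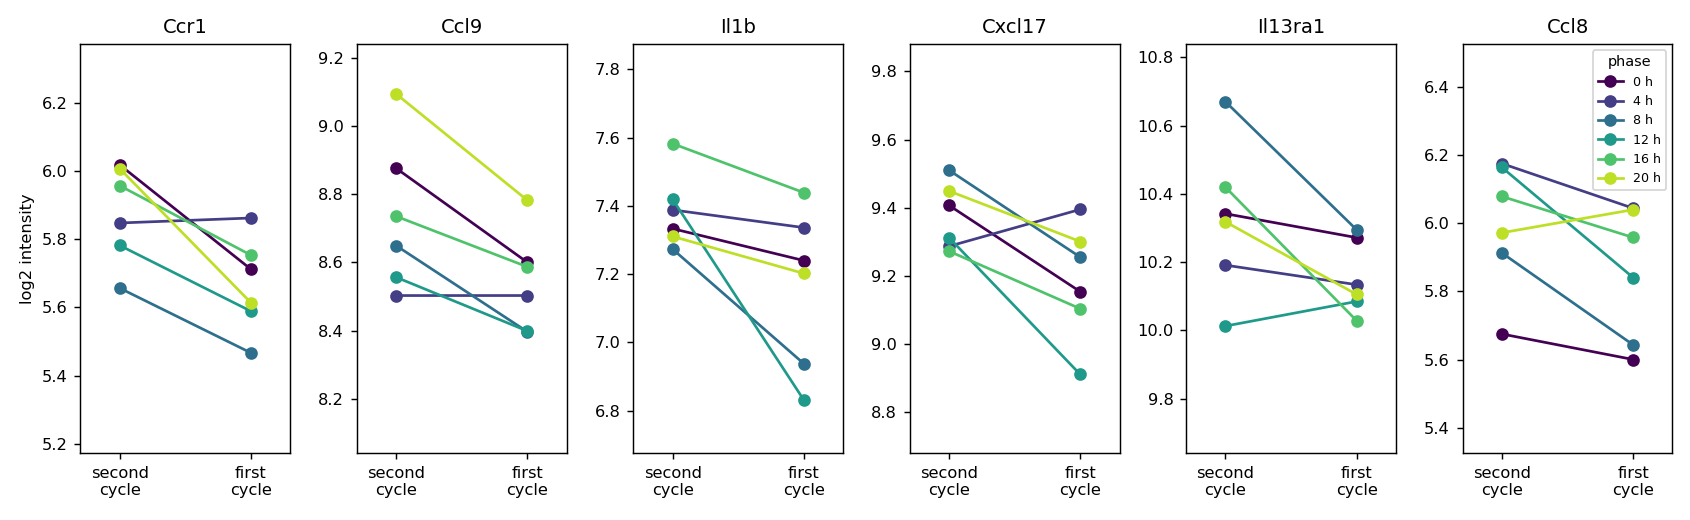
Log2 intensity of the 6 members with the smallest p in the contrast of cycles, with the second cycle on the left and the first on the right of each panel. Each line joins the 2 pools of a phase, coloured by phase in hours, and every panel spans 1.2 log2 units. All 6 lines fall to the right for Il1b, while 1 line rises or stays level in each other panel.

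Beyond Ccl19, Ccr7 and Cxcl5, the members with the largest ranges were Ccr1l1 (0.94), Cxcl13 (0.88), Il20rb (0.85), Ccr6 (0.84) and Il13 (0.81). Ccr1l1, a relative of Ccr1, ran from 5.46 at CT56 to 6.40 at CT36. Il20rb, a receptor chain for IL-19, IL-20 and IL-24, ran from 8.30 at CT56 to 9.15 at CT36. Ccr6, the CCL20 receptor of Th17 cells, ran from 6.32 at CT48 to 7.17 at CT52, and Il13, a type 2 cytokine, from 7.48 at CT48 to 8.28 at CT36. Without CT56 the range of Cxcl13 was 0.52. After quantile normalization the range of Ccr6 was 0.58.

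Ligands and receptors that work as pairs were set beside each other for their values alone. Cxcl12 and Cxcr4, the axis that retains stem and immune cells, both stayed narrow, at 8.02 to 8.39 and 8.54 to 8.71. Ccl25 ran from 8.25 to 8.41 and its receptor Ccr9 from 6.39 to 6.95. Ccl28 had the range given above, and its receptor Ccr10 ran from 7.42 to 7.89. None of these genes was called in any fit.

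Among inflammatory pairs, Ccl2 ran from 7.27 at CT48 to 7.94 at CT36, while Ccr2, its receptor on monocytes, lay between 5.395 and 5.71. Cxcl2 ran from 5.70 to 6.25 and its neutrophil receptor Cxcr2 from 6.42 to 6.71. Ccl5, a T cell chemokine, ran from 8.09 to 8.50. Cxcl10, an interferon-induced chemokine, lay between 6.75 and 7.23 and its receptor Cxcr3 between 7.38 and 8.11. Ccl20 lay between 7.58 and 7.91, beside the 6.32 to 7.17 of Ccr6. Cxcl16, a membrane-bound chemokine, lay between 6.87 and 7.16 and Cxcr6 between 6.69 and 7.12.

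Among cytokine pairs, Il6 was flat, at 4.44 to 4.62, while its receptor chains read 7.99 to 8.34 for Il6ra and 10.52 to 10.86 for Il6st, the shared signal chain gp130. Il1rn, the natural antagonist of IL-1, ran from 6.94 at CT32 to 7.47 at CT36, against 6.83 to 7.58 for Il1b. Il18r1, the IL-18 receptor, lay between 5.74 and 6.06. The receptors Il1r1 and Il1rl1 were not analysed here.

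Of the 3 motifs, that of NF-κB differed most in frequency between member promoters and all promoters. It stood in 17 of 107 member promoters (15.9%), beside 4.65% of all 32851, and promoters of related genes that lie side by side can share sequence. The neutrophil chemokines Cxcl1, Cxcl2 and Cxcl3, which lie near each other on chromosome 5, are shown because each holds the same run of letters, in which a match on either strand overlaps.
Cxcl1, chr5:90890995-90891244, plus strand: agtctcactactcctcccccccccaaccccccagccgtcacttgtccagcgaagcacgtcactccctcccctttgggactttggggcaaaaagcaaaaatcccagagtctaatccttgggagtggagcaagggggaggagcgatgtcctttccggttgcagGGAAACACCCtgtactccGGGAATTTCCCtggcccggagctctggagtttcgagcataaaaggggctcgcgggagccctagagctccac
Cxcl2, chr5:90903649-90903898, plus strand: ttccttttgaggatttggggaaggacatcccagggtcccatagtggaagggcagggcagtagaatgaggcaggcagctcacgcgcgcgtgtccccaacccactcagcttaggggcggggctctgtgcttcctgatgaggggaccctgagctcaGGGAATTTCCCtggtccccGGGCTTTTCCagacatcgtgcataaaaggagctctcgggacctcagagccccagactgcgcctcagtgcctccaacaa
Cxcl3, chr5:90785851-90786100, plus strand: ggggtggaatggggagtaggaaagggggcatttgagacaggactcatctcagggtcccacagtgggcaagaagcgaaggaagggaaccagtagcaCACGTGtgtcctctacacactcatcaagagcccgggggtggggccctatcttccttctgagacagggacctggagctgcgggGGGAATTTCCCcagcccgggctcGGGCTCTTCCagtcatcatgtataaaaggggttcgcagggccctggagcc
Each also holds a further NF-κB match, and that of Cxcl3 an E-box upstream. None of the 3 genes had a call. Cxcl1 ran from 7.33 to 7.97, Cxcl2 from 5.70 to 6.25 and Cxcl3 from 6.16 to 6.79. Cxcl1 and Cxcl3 were highest at CT52 and Cxcl2 at CT16.

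Genes downstream of these receptors were taken from lists. Over all genes, an unadjusted p under 0.05 was reached by 3.54% in the 24 h fit, 9.86% at night and 13.2% between cycles. None of 23 genes from the IL-1 receptor to NF-κB was called. At an unadjusted p under 0.05 there was 1 in the 24 h fit and 1 at night, both times Nfkbia, the inhibitor that NF-κB itself induces, whose fit peaked at CT 16.3 by 0.14 ± 0.037 over the mean, with a night difference of 0.17 ± 0.056 (limma, adjusted p = 0.996 and 0.497). Between cycles there were 4 of 23, 1 higher and 3 lower, led by Tollip, a damper of IL-1 signalling, at -0.20 ± 0.062 (limma, adjusted p = 0.304). Of 14 JAK, STAT and SOCS genes, 0 had an unadjusted p under 0.05 in the 24 h fit, 1 at night (Jak2, a kinase, at -0.17 ± 0.077, adjusted p = 0.497) and 1 between cycles (Stat2, an interferon signal factor, at -0.11 ± 0.048, adjusted p = 0.364).

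Of 14 genes of chemokine receptor signalling, 0 in the 24 h fit, 1 at night and 2 between cycles had an unadjusted p under 0.05, those between cycles led by Gnb1, a G-protein subunit, at -0.16 ± 0.051 (limma, adjusted p = 0.304). Among 33 other chemokines, atypical receptors and cytokine receptors the counts were 3, 2 and 1, with 0 called. The shares of all genes in the same fits were 3.54%, 9.86% and 13.2%. The smallest p belonged to Csf2, the growth factor GM-CSF, in the 24 h fit (amplitude 0.15 ± 0.047, peak at CT 21.3, adjusted p = 0.996), to Xcl1, a T cell chemokine, at night (0.24 ± 0.099, adjusted p = 0.497) and to Tslp, an epithelial cytokine, between cycles (0.13 ± 0.054, adjusted p = 0.352), all by limma.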

How the data were processed

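Each array measured total RNA of 1 pool of 4 mice. The deposited values are log2 intensities, read as such from their range of 3.48 to 14.5. The tool affy is named in the submitters' processing notes, but sources used here do not state its version, background correction or normalization. Column medians lay between 7.81 and 7.92. Of 34760 probes, 21640 had 1 symbol in the platform annotation, 1321 had several and 11799 were not listed. Symbols were looked up by Entrez ID in RefSeq tables (21553 matched), and the highest-mean probe stood for a gene. Of the 124 members 119 had 1 probe, and 6 probes with several symbols, such as Ccl21a and Il22, were not named.

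limma 3.58.1 in R 4.3.3 fitted a 24 h cosine and sine (9 residual degrees of freedom), night (phases 12, 16 and 20 h) minus day (0, 4 and 8 h), and second minus first cycle with phase as a factor, each on all 19937 genes with Benjamini-Hochberg adjustment and with no filter on dim genes. The 24 h, night and cycle fits, but not the fit with phase as a factor, were first tested on simulated data. Of 200 genes changed by 0.3 (amplitude or difference), 51.5% were called in the 24 h fit, 37.5% at night and 0% between cycles. At 0.5 the shares were 94%, 86% and 80%. The simulated noise was independent for each gene and pool, without the shift of dim genes that the real pools share. With 200 changed genes the adjustment is also less strict than in the real fits, which called 5, 0 and 0 genes. The shares therefore do not give the chance of a call in the real data. With 1 pool per time, p-values measure the spread between pools, and precision is limited by the number of arrays. Members and lists were chosen with earlier results of these data known. Named were the members with an unadjusted p under 0.05, up to 6 per comparison and direction, the 8 largest ranges, the smallest p of the 24 h fit in each role (Ccr1 among the CC receptors), and the ligand and receptor pairs. Genes of other lists were named by the smallest p in a comparison. Alternatives were quantile normalization, median centring, a filter on dim genes, array weights, the mean of all probes, a trended and robust prior, cycle as a block, phase as a factor, no phase factor and each pool left out. Cyclic loess, leaving out CT32 and CT56 together, and the alternatives for Ccl19 were added after seeing the data. Promoters (250 bases before the start, RefSeq, GRCm38.p6) were matched by symbol. Figures and tables used Python 3.11.15, numpy 2.4.6, pandas 2.3.3, matplotlib 3.10.9 with data.table (1.17.8).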

Additional observations from a re-analysis of the deposited data

Results flagged for a closer look

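Among the 24 genes named by rule, 96 groups of 6 pools (night, day, second and first cycle) were checked for a highest or lowest pool far from the rest. The measure is the gap to the nearest pool divided by the group's range, set against Dixon's critical value, and chance alone flags about 1 in 20 groups, or 4.8 of 96. There were 3 such groups. Ccl19 at CT32, at 9.51, was the lowest of the 6 pools of the first cycle with a ratio of 0.752. Cxcl13 at CT56, at 5.82, was the lowest of the 6 day pools with a ratio of 0.660. Il1b at CT32, at 6.94, was the lowest of the 6 day pools with a ratio of 0.671. All 3 lay at CT32 or CT56, the pools of phase 8 h. Over all genes CT56 had the lowest mean correlation with the other pools (0.984), and CT32 (0.989) came after CT36 (0.988).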

How the results depend on the processing

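None of the 482 alternative values of the 23 single-gene results for the 3 comparisons changed direction or passed the threshold. The count of members with an unadjusted p under 0.05 in the 24 h fit was 7, and it was 4 with dim genes left out (of 62 members), 13 with array weights, 11 with cyclic loess, 13 without CT32 and CT56 together and 31 with phase as a factor, where 1 member was called. Leaving out single pools gave 5 to 13, the highest without CT52. The night count of 15 was 41 with array weights and 3 without CT32 and CT56 together, and 6 (without CT56) to 37 (without CT52) with single pools left out. Members above 0 at night were 99 of 124, 47 of 62 with dim genes left out, and 93 to 102 with single pools left out. The count between cycles, 7, was 11 with quantile normalization, 4 with dim genes left out, 18 with array weights (7 higher and 11 lower), 11 with cyclic loess and 4 without CT32 and CT56 together, and 4 (without CT32 or CT56) to 14 (without CT12 or CT36) with single pools left out. Members above 0 between cycles were 59 of 124, 32 of 62 with dim genes left out, 36 with array weights and 81 with median centring, and 35 (without CT12 or CT36) to 82 (without CT16 or CT40) with single pools left out. For Ccl19, phase 8 h lay at -1.19 with cyclic loess (limma, adjusted p = 0.0733 for the 6 phases). It lay at -0.61 with the mean of its probes (limma, adjusted p = 0.282 for the 6 phases). With single pools left out it lay at -1.18 to -1.05, both ends without a call. Members or pools left out give fewer values by construction, and for the other changes the cause was not tested. Counts over all genes move with the setting as well. With phase as a factor and single pools left out, they ran from 1901 (without CT48) to 4634 (without CT32) at an unadjusted p under 0.05. For most settings the count over all genes is not given here, so no change in a count of members is read as particular to them. The contrast of cycles pairs the pools of a phase, and without the phase factor its count was 5.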
